A study of Mus musculus with 24 samples.

Results

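Ap1s2, Pdzd2 and Prg4 were 3 genes for which the arrays carried more than 1 probe, and for which the probes of the same gene gave unequal differences between the MS5 group and controls. They were found as all non-control probes whose gene name on the array was Ap1s2, Pdzd2 or Prg4. This gave 7 of 55681 probes, with 2 for Ap1s2, 3 for Pdzd2 and 2 for Prg4, and 3 of 36163 gene names. Of all the gene names, 10366 had 2 or more probes. The genes were chosen from the difference between MS5 and control arrays, so that difference is given as a description without a test.

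The arrays were 1-colour Agilent arrays of 60-base probes, with 5 per group, and each held hippocampal RNA of a separate male C57BL/6 pup at P9, from both hippocampi pooled. Control pups (Con) were untreated (0 mg/kg) and handled little. From P5 the other pups received subcutaneous morphine at 2 mg/kg (MS2) or 5 mg/kg (MS5), together with isolation from the dam and spells of nitrogen followed by oxygen. No group received morphine alone or the stress protocol alone, so in each contrast with Con the 2 cannot be told apart. Treated pups were then put back with control littermates. Levels are log2 intensities after background adjustment and quantile normalization, and because each probe binds with its own strength, only differences within a probe are compared.

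Ap1s2 encodes a sigma subunit of AP-1, the adaptor that links clathrin to cargo at the trans-Golgi network and endosomes, and the gene lies on the X chromosome. Pdzd2 encodes a protein with several PDZ domains, the modules by which scaffold proteins hold their partners by the tail. Prg4 encodes lubricin, a secreted and heavily glycosylated protein best known as the lubricant of joint surfaces. A probe on an array reads only the stretch of transcript it matches, so probes placed far apart on a gene can report different transcripts of it.

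The positions below are in mm9, as the array files give them, and no exon annotation of this build was used here. The probes for Ap1s2 (NM_026887, plus strand) were A_52_P488596 and, further toward the 3′ end, A_51_P435321 at chrX:160367276-160367335. The probes for Pdzd2 (NM_001081064, minus strand) were A_55_P2062070 at chr15:12521846-12521905, A_55_P2047564 at chr15:12337039-12337098 and A_55_P1966254 at chr15:12286885-12286944, in 5′ to 3′ order. The probes for Prg4 (NM_021400, minus strand) were A_55_P2023637 at chr1:152297067-152297126 and A_55_P2185860 at chr1:152296620-152296679, which began 447 bases apart. Each probe was on 1 spot of each array. They are called below the 5′ and 3′ probes of Ap1s2 and of Prg4 and the first, second and last probes of Pdzd2.

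Sequences are shown for the first and second probes of Pdzd2, which were the pair of that gene measured above background on every array. They are written 5′ to 3′ in the sense of the transcript.
Pdzd2 A_55_P2062070: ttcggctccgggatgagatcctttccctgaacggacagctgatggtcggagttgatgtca
Pdzd2 A_55_P2047564: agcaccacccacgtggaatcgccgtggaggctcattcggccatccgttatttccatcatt
The first could be read without a stop codon in 1 frame and the second in all 3 frames. The 5′ probe of Prg4 had a stop codon in each of its 3 frames, as had 20.7% of all probes. The GC content was 35% for the 3′ probe of Ap1s2, 55%, 55% and 45% for the probes of Pdzd2, and 35% for both probes of Prg4, against a median of 43.3% over all probes. For Prg4 the 3′ probe was 50% adenine and shared a run of 20 bases with a probe for a long intergenic transcript. A probe for Tpr, which encodes a nuclear pore protein, lay 5 bases from the 5′ probe of Prg4 on the opposite strand.

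Both slides held arrays of all 3 groups, and 0 spots were saturated. The median spot signal ranged from 58.2 to 154, with MS2 replicate 5 the dimmest array and 121 the lowest value among the other arrays. The array of MS2 replicate 4 stood apart: its median correlation with the other arrays was 0.990, against 0.996 or more for the rest. The mean level of 10 genes of hippocampal neurons was 10.2 on that array and 11.6 to 12.0 on the others, and that of 7 genes of hypothalamus and thalamus was 10.5, against 8.22 or less on the other MS2 arrays. All 10 of the hippocampal genes were well above background on every array. The array of MS5 replicate 9 carried Xist at a level of 10.4, against 6.04 or less on the other arrays, which goes against its label as male. Values without these arrays are given beside the results that they move.

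**Figure D1:**
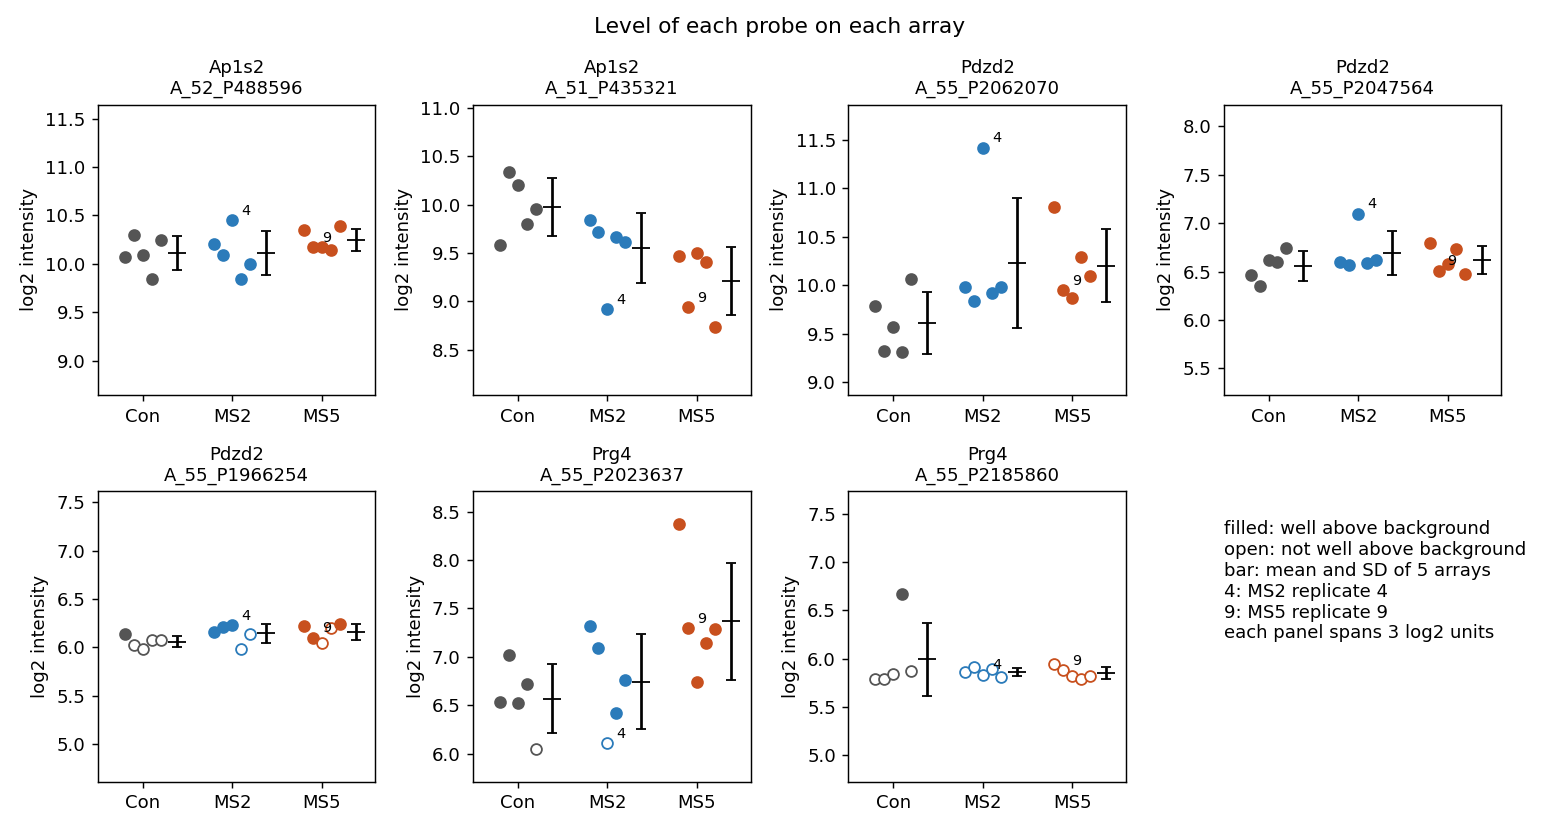
Level of the 7 probes in log2 intensity (vertical axis) on each of the 15 arrays, by group, with bars for the mean and SD of 5 arrays, and open circles for arrays on which the probe was not well above background. The 3′ probe of Ap1s2 lies lower on all MS5 arrays than on any Con array, while its 5′ probe spans 9.84 to 10.45 over the 3 groups; the 3′ probe of Prg4 is filled on 1 array only.

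The 3′ probe of Ap1s2 was well above background on all 15 arrays. Its level on Con replicates 15 to 19 was 9.58, 10.33, 10.20, 9.80 and 9.96. On MS2 replicates 1, 3, 4, 5 and 7 it was 9.84, 9.72, 8.92, 9.66 and 9.61. On MS5 replicates 8, 9, 12, 13 and 14 it was 9.47, 8.94, 9.50, 9.41 and 8.73. All 5 MS5 arrays therefore lay below all 5 Con arrays, and the MS2 arrays lay below or within the range of the Con arrays, with replicate 4 the lowest of them. Over all probes 0.828% had MS5 arrays that did not overlap with Con arrays. The MS5 mean was 9.21 ± 0.35 (SD, n = 5) and the Con mean 9.98 ± 0.30 (SD, n = 5), a difference of -0.76 (SE 0.20) on the log2 scale. It was -0.70 without MS5 replicate 9, and -0.42 and -1.09 within slides 1 and 2.

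The 5′ probe of Ap1s2, also well above background on all 15 arrays, showed no such separation. Its level was 10.07, 10.30, 10.09, 9.84 and 10.25 on Con replicates 15 to 19. It was 10.20, 10.09, 10.45, 9.84 and 10.00 on MS2 replicates 1, 3, 4, 5 and 7. It was 10.35, 10.17, 10.17, 10.14 and 10.39 on MS5 replicates 8, 9, 12, 13 and 14. The 3 groups overlapped, and the difference between MS5 and Con was 0.13 (SE 0.11).

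The MS2 arrays took no part in choosing the genes, although the Con arrays did. Between MS2 and Con, the 3′ probe of Ap1s2 differed by -0.42 (SE 0.20, limma adjusted p = 0.970, two-sided exact permutation p = 0.0794, lower than the Con mean on 5 of 5 MS2 arrays). Without MS2 replicate 4 the difference was -0.27 (SE 0.17, limma adjusted p = 1.00, exact permutation p = 0.159). The 5′ probe differed by 0.01 (SE 0.11, limma adjusted p = 1.00, exact permutation p = 0.984). Neither probe passed the test. Within slides 1 and 2 the 3′ probe differed by -0.14 and -0.85, and the 5′ probe by 0.09 and -0.13. No probe of the table passed in this contrast, since limma gave 0% of the 55681 probes an adjusted p under 0.05, with 2324 at an unadjusted p under 0.05. The looser threshold of the study asks for more than 1.5-fold and an unadjusted p below 0.05. It took in 13 probes, or 0.0233%, and neither probe of Ap1s2. MS2 arrays lay wholly above or wholly below Con arrays for 0.702% of all probes, and for 0 of the 7 probes of these genes.

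The gap between the probes was taken as the 5′ minus the 3′ value on the same array, relative to the Con mean of that quantity. For Ap1s2 it was -0.24 to 0.35 on Con arrays. On MS5 replicates 8, 9, 12, 13 and 14 it was 0.742, 1.098, 0.535, 0.597 and 1.520. On MS2 replicates 1, 3, 4, 5 and 7 it was 0.23, 0.23, 1.40, 0.04 and 0.25. Every MS5 array lay above the Con range, while among MS2 arrays only replicate 4 did. The mean gap was 0.90 (SE 0.21) between MS5 and Con, which stayed between 0.67 and 1.06 under the alternatives run for it. In MS2 against Con it was 0.43 (SE 0.27, exact permutation p = 0.0952, adjusted p = 1 over 39398 pairs of probes of the same gene), and 0.19 without MS2 replicate 4 (exact permutation p = 0.183).

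**Figure D2:**
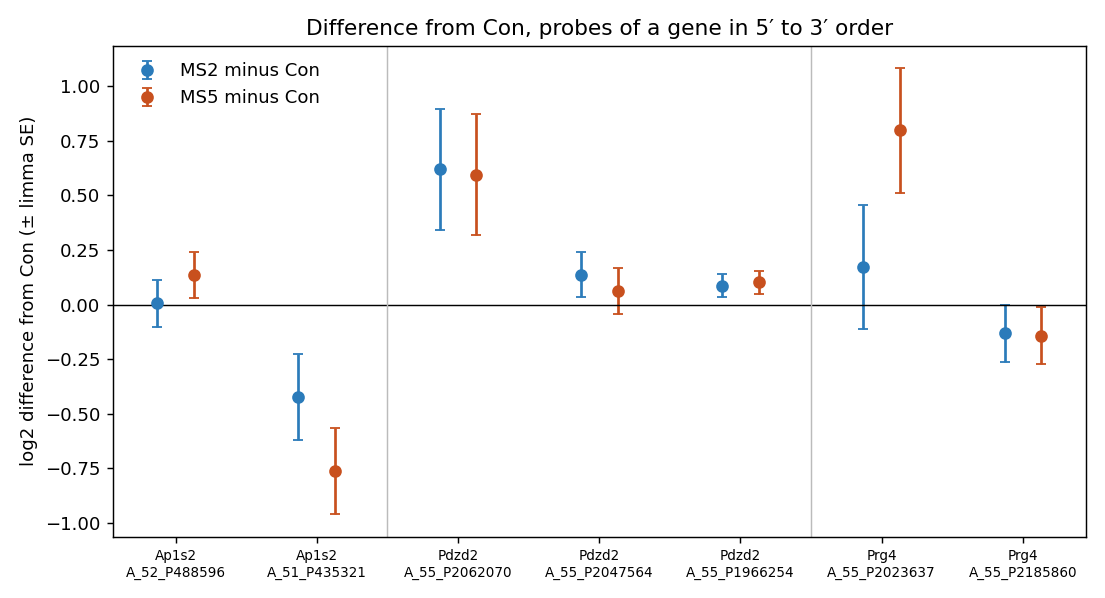
Log2 difference of MS2 and of MS5 from Con (vertical axis) for the 7 probes, with limma SE as error bars and the probes of a gene in 5′ to 3′ order. The 3′ probe of Ap1s2 stands at -0.76 in MS5 beside 0.13 for the 5′ probe, the first Pdzd2 probe at 0.60 beside 0.06 for the second, and the 5′ Prg4 probe at 0.80.

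The level of the 3′ probe moved with markers of another tissue. The choroid plexus lies in the ventricles, next to the hippocampus, and makes cerebrospinal fluid. It is marked by genes such as Ttr, which encodes transthyretin, and Folr1, a folate receptor. Of a list of 10 such genes, all well above background on every array, 9 passed the study's looser threshold as lower in MS5 than in Con, where 0.228% of all probes passed it in either direction. These were Folr1, at -2.002 (SE 0.65), Aqp1, Kcnj13, Clic6, Slc4a5, Otx2, Kl, Enpp2 and Sostdc1, the last 8 at -1.11 to -1.56. Ttr differed by -1.54 (SE 0.72) and did not pass. The list was chosen with earlier results of these data known. The study had already given Folr1, Aqp1, Clic6, Slc4a5, Otx2 and Kl as lowered in morphine-treated pups of these arrays. The count of the list beside the share over all probes is therefore a description. The median difference of the list was -1.29, against 0.00 over all probes, and none of the 10 had an adjusted p under 0.05 in limma. The count rested in part on single arrays: 4 of the 10 passed without MS5 replicate 9, where the median was -1.02, and 6 without MS5 replicate 14, where the median was -0.84. It was 6 to 10 when any 1 of the other arrays was left out. The mean level of the list lay between 12.3 and 13.2 in Con, between 12.4 and 12.97 in MS2 and between 9.45 and 12.7 in MS5. It was lowest on MS5 replicates 14 and 9, the arrays on which the 3′ probe of Ap1s2 was also lowest within that group. In RNA of a whole tissue, fewer cells of a type and less RNA per cell cannot be told apart.

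After group means were removed, the deviations of the 3′ probe were compared with those of the choroid plexus list over the 15 arrays, a relation added after the data were seen. Pearson's r was 0.770 (permutation p = 4.0e-05, adjusted p = 0.00140 over 35 relations of 7 probes with 5 marker lists) and Spearman's rho was 0.857 (permutation p = 0.000140, adjusted p = 0.00490). Without the 2 arrays farthest from the median of the list, r was 0.731, and without MS2 replicate 4 it was 0.904. It was 0.870 on the first slide and 0.736 on the other. For the 5′ probe of Ap1s2, Pearson's r with the same list was -0.0295 (permutation p = 0.895, adjusted p = 0.921) and Spearman's rho was 0.118 (permutation p = 0.657, adjusted p = 0.793). Without the 2 farthest arrays r was 0.296, and it was 0.638 on the first slide and -0.281 on the other. None of the other 33 relations passed the adjusted test by Pearson's r or Spearman's rho. The part of the choroid plexus in the difference of the 3′ probe was not tested.

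**Figure D3:**
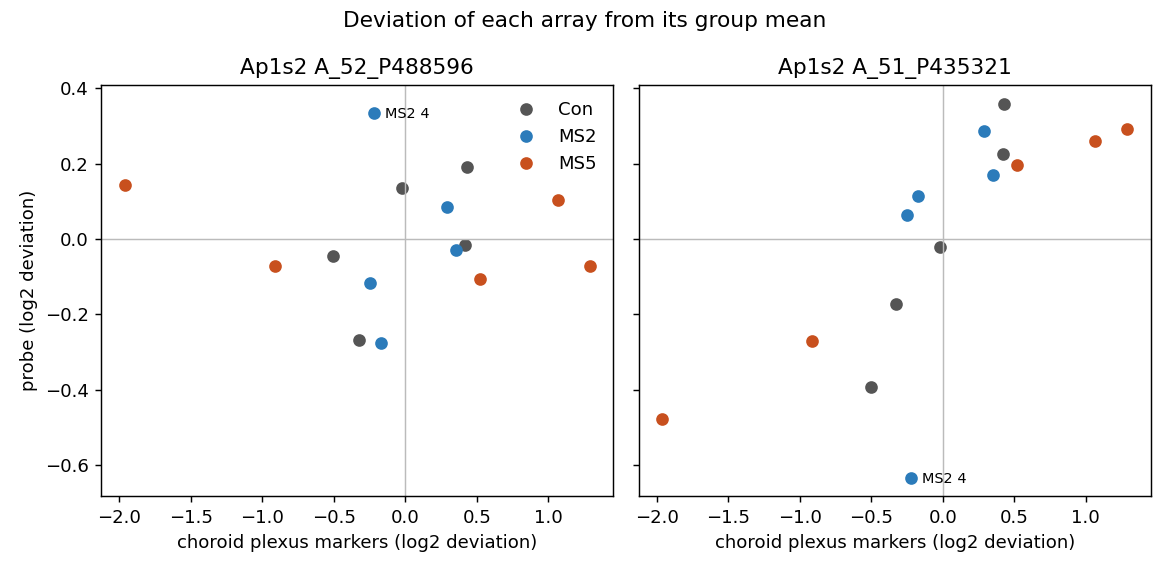
Deviation of each array from its group mean for the mean of 10 choroid plexus genes (horizontal axis, log2) and for the 5′ and 3′ probes of Ap1s2 (vertical axis, log2), with colours for the 3 groups. The 3′ probe deviates with the markers, at an r of 0.770, with MS2 replicate 4 away from the line, and the 5′ probe has an r of -0.0295.

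The first probe of Pdzd2 was well above background on all 15 arrays. Its level was 9.78, 9.32, 9.56, 9.31 and 10.06 on Con replicates 15 to 19. It was 9.98, 9.84, 11.42, 9.92 and 9.98 on MS2 replicates 1, 3, 4, 5 and 7. It was 10.81, 9.95, 9.87, 10.29 and 10.10 on MS5 replicates 8, 9, 12, 13 and 14. The groups overlapped, but 3 of the 5 MS5 arrays lay above all Con arrays, and MS2 replicate 4 was the highest of all. The difference between MS5 and Con was 0.60 (SE 0.28). It was 0.66 without MS5 replicate 9, and 1.00 and 0.28 within slides 1 and 2.

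The second probe of Pdzd2 was also well above background on all 15 arrays. Its level lay between 6.35 and 6.75 in Con, between 6.57 and 6.62 in MS2 apart from replicate 4, and between 6.48 and 6.80 in MS5. On MS2 replicate 4 it was 7.10, again the highest value of the probe. The difference between MS5 and Con was 0.06 (SE 0.11). The probe was dim, with a mean signal of 51.3 to 68.6 on Con arrays, against 553 to 1010 for the first probe. The size of its difference depended on the background step. With the scanner's processed signal it was 0.25 in MS5 and 0.36 in MS2, where the first probe stood at 0.65 in both. The remaining probe, nearest the 3′ end, was well above background on 1 Con, 3 MS2 and 3 MS5 arrays, with levels between 5.99 and 6.24 on all 15 arrays, and no fold is given for it.

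Between MS2 and Con the first probe of Pdzd2 differed by 0.62 (SE 0.28, limma adjusted p = 0.970, exact permutation p = 0.0635), and by 0.32 without MS2 replicate 4 (SE 0.18, limma adjusted p = 1.00, exact permutation p = 0.119). The second probe differed by 0.14 (SE 0.11, limma adjusted p = 0.970, exact permutation p = 0.365), and by 0.04 without that array (exact permutation p = 0.690). Neither passed the adjusted test. The first probe was 1 of the 13 probes that passed the study's looser threshold in this contrast, at a fold of 1.54, but its difference without MS2 replicate 4 fell short of 1.5-fold. Within slides 1 and 2 it differed by 0.38 and 0.98, and the array of MS2 replicate 4 was on slide 2.

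Markers of hypothalamus and thalamus, regions that lie beneath the hippocampus, were also unequal between arrays. Of the 7 markers, 6 were well above background on every array and Pmch on 13 of 15. Avp, Oxt and Trh, which encode the neuropeptides vasopressin, oxytocin and thyrotropin-releasing hormone, passed the looser threshold as higher in MS5 than in Con, at 2.53 (SE 1.04), 1.79 (SE 0.69) and 1.89 (SE 0.83), where 0.228% of all probes passed in either direction. Hcrt, Tcf7l2, Nkx2-1 and Pmch stood at 0.03, 0.10, 0.33 and 0.35 and did not pass, the median of the list was 0.35, and none of the 7 had an adjusted p under 0.05 in limma. This list was also chosen with earlier results of these data known. The study had already given Avp and Trh as higher in MS5 in these arrays, so the count is a description. The number that passed was 0 without MS5 replicate 8, 0 without MS5 replicate 14 and 1 without Con replicate 18, and 2 or 3 without any 1 of the other arrays. The mean level of the list lay between 7.17 and 8.17 in Con, between 7.38 and 10.5 in MS2 and between 7.59 and 9.31 in MS5. The part of these markers in the Pdzd2 values was not tested. Within groups, the first probe had an r of 0.772 with these markers (permutation p = 0.0319, adjusted p = 0.186 over 35 relations; rho 0.414, adjusted p = 0.655), which was 0.371 without MS2 replicate 4. With the hippocampal neuron list its r was -0.849 (permutation p = 0.0118, adjusted p = 0.165; rho -0.632, adjusted p = 0.305), and -0.502 without that array.

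The gap between the first and second probes of Pdzd2 was 0.53 (SE 0.17) between MS5 and Con. Between MS2 and Con it was 0.48 (SE 0.23, exact permutation p = 0.0397, adjusted p = 1), and 0.29 without MS2 replicate 4 (exact permutation p = 0.0873). It was the 1 pair of 5 with an exact permutation p under 0.05, which 4.43% of the 39398 pairs had. The smallest p this test can give is 0.00794. Adjusted over 39398 pairs, such a p could pass only if a large share of the pairs reached it, and 0 pairs of the table passed. The adjusted p therefore tells nothing about a single gap, and this holds for Ap1s2 and Prg4 too.

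Although their group differences were unequal, with the second probe dim, the first and second probes of Pdzd2 varied together from array to array. The within-group Pearson's r was 0.878 (permutation p = 0.00338, adjusted p = 0.0352) and Spearman's rho was 0.657 (permutation p = 0.0144, adjusted p = 0.103). Of all pairs, 11.4% passed this test by Pearson's r, as did 23.4% of pairs with both probes well above background on all arrays. The relation rested in part on MS2 replicate 4: without it r was 0.712 (adjusted p = 0.173), and without that array and MS5 replicate 8, the 2 farthest from the median, it was 0.670. On the first slide r was -0.132 and on the other slide 0.938. With deviations taken within group and slide, r was 0.814 (permutation p = 0.350, adjusted p = 0.715). That permutation moved arrays only within blocks of 2 or 3 arrays, where a small p is hard to reach, so it cannot decide the question.

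The probes of Ap1s2 had no such relation, with a within-group Pearson's r of -0.230 (permutation p = 0.450, adjusted p = 0.716) and a Spearman's rho of 0.00 (permutation p = 1.00, adjusted p = 1.00). Without MS2 replicate 4 r was 0.203. Without replicates 4 and 5 of MS2, the 2 arrays farthest from the median, it was 0.174, and it was 0.389 on the first slide and -0.751 on the other. For comparison, 16997 pairs of probes of the same gene, in 6943 genes, had both probes well above background on all arrays. Their median within-group r was 0.476, with quartiles of 0.122 and 0.745. The value for Ap1s2 exceeded 8.64% of these pairs and that for the first and second Pdzd2 probes 88.7%.

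**Figure D4:**
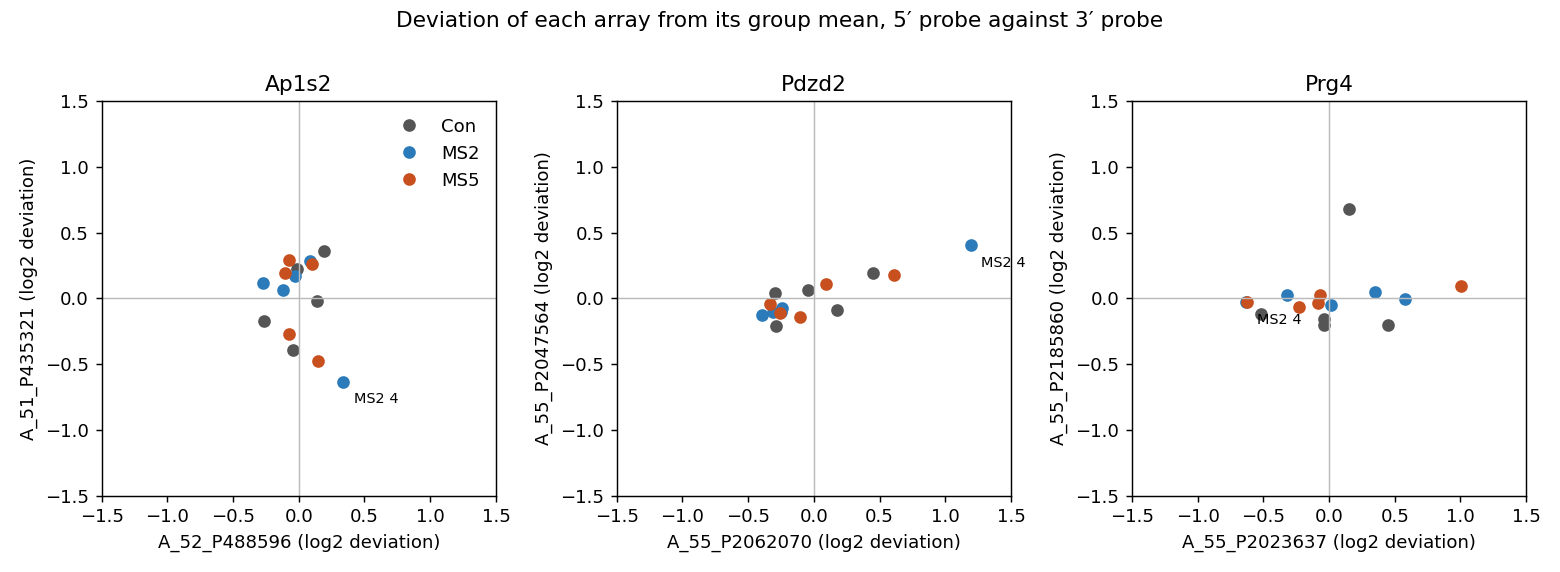
Deviation of each array from its group mean (log2) for the 5′ probe (horizontal axis) and the 3′ or second probe (vertical axis) of each gene, on equal scales, with MS2 replicate 4 named. The Pdzd2 points lie along a line, at an r of 0.878 that MS2 replicate 4 extends, while the Ap1s2 points have an r of -0.230 and the 3′ Prg4 probe stands far from its group mean on 1 Con array only.

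The 5′ probe of Prg4 was well above background on 4 Con, 4 MS2 and 5 MS5 arrays. Its level was 6.53, 7.02, 6.53, 6.72 and 6.05 on Con replicates 15 to 19. It was 7.32, 7.09, 6.11, 6.42 and 6.76 on MS2 replicates 1, 3, 4, 5 and 7. It was 8.37, 7.30, 6.74, 7.14 and 7.29 on MS5 replicates 8, 9, 12, 13 and 14. The MS5 arrays were high, with 4 of 5 above all Con arrays and replicate 8 the highest, but replicate 12 lay within the Con range. The difference between MS5 and Con was 0.80 (SE 0.28), 0.55 without MS5 replicate 8 and 0.82 without MS5 replicate 9, and 1.16 and 0.57 within slides 1 and 2. For a probe this dim the size depends on the background step: it was 1.40 at a normexp offset of 0 and 1.72 with the scanner's processed signal. In MS2 against Con it was 0.17 (SE 0.28, limma adjusted p = 0.976, exact permutation p = 0.532), which did not pass the test, and it was 0.47 and -0.27 within slides 1 and 2, 0.027 without MS2 replicate 1 and 0.33 without MS2 replicate 4.

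The 3′ probe of Prg4 was well above background on 1 array only, Con replicate 18, where its level was 6.67 and its mean signal 60.2. Its level elsewhere lay between 5.79 and 5.95, and its mean signal in MS2 and MS5 between 17.7 and 26.1. It therefore gave no measured difference between groups, and the gap of 0.94 (SE 0.33) between the Prg4 probes in MS5 and Con is that of a probe near background and a floor. In MS2 against Con the gap was 0.30 (SE 0.30, exact permutation p = 0.317, adjusted p = 1). Within groups the Prg4 probes had an r of 0.179 (permutation p = 0.420, adjusted p = 0.693; rho 0.200, adjusted p = 0.691). The Tpr probe beside the 5′ Prg4 probe was well above background on all arrays and differed by 0.05 (SE 0.09) between MS5 and Con.

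A gap as large as that of Ap1s2 was rare in the table. Over the 16997 pairs measured on all arrays, the size of the gap between MS5 and Con had a median of 0.06 and a 95th percentile of 0.22. Larger gaps than that of Ap1s2 were found in 0.0824% of these pairs, and larger gaps than that of the first and second Pdzd2 probes in 0.312%. Since the genes were chosen from this contrast, these shares are descriptions. In MS2 against Con the median size of the gap was 0.06 and the 95th percentile 0.23, and the gap of 0.43 for Ap1s2 and that of 0.48 for Pdzd2 lay beyond the latter. Without MS2 replicate 4 the gap was 0.19 for Ap1s2 and 0.29 for Pdzd2. The 95th percentile was not computed without that array, so these smaller gaps cannot be placed against it.

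**Figure D5:**
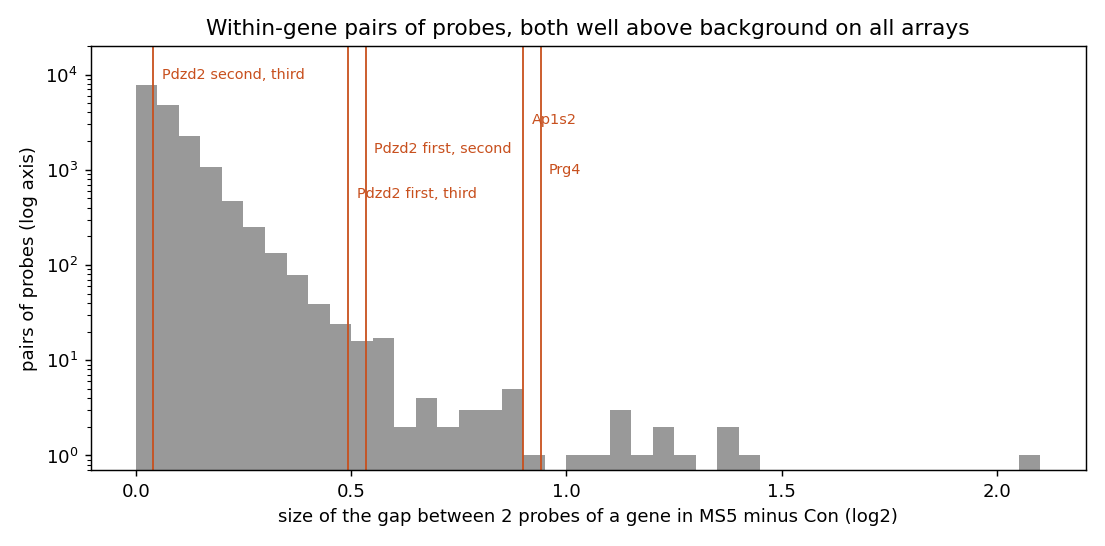
Number of pairs of probes of the same gene (vertical axis, log scale) by the size of their gap between MS5 and Con (horizontal axis, log2), for the 16997 pairs with both probes well above background on all arrays, and lines at the 5 pairs of Ap1s2, Pdzd2 and Prg4. The Ap1s2 line at 0.90 lies in the far tail, and the lines of pairs with the last Pdzd2 probe (the third in the plot) or the 3′ Prg4 probe are of probes not above background on all arrays.

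The MS5 and MS2 arrays were also set against each other, with no test, since the MS5 arrays had served to choose the genes. The differences of MS5 from MS2 were 0.13 and -0.34 for the 5′ and 3′ probes of Ap1s2. They were -0.02 and -0.08 for the first and second probes of Pdzd2, which became 0.27 and 0.025 without MS2 replicate 4. Within slides 1 and 2 the first Pdzd2 probe differed by 0.62 and -0.70 and the second by 0.17 and -0.32, so neither had a settled direction in this contrast. The 5′ probe of Prg4 differed by 0.63, by 0.37 without MS5 replicate 8 and by 1.31 with the processed signal.

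The genes that work with these 3 were summarized by lists, with 1 probe per gene. Over all probes 0.0233% passed the looser threshold in MS2 against Con and 0.228% in MS5 against Con. At such shares lists this short would rarely hold a gene that passed. Of 7 other subunits of AP-1, 0 passed the adjusted test or the looser threshold in MS2 or MS5 against Con, and all were well above background on every array. Their differences between MS5 and Con were -0.07 to 0.27 with a median of 0.12, against a median of 0.00 over all probes. Ap1s1 and Ap1s3, which encode the other sigma subunits of AP-1, stood at 0.12 and 0.27 in MS5. The large subunits Ap1b1, Ap1g1 and Ap1g2 stood at -0.07, 0.03 and 0.12, and the medium subunits Ap1m1 and Ap1m2 at 0.01 and 0.16. The rule used for the lists, the probe with the highest mean level, would take the 5′ probe for Ap1s2. At 0.13 that probe lay within the range of the other subunits. The 3′ probe, at -0.76, lay below it, but was chosen with its difference known.

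Of 16 partners and cargo of AP-1, such as clathrin chains and sorting receptors, 0 passed, with a median of -0.02 between MS5 and Con. Of 4 sigma subunits of the other adaptors 0 passed, with a median of 0.05. Of 26 PDZ scaffold genes 0 passed, with a median of 0.04 and a range of -0.16 to 0.38. Of 17 genes related to lubricin by domain, hyaluronan or joint matrix, 1 passed the study's threshold as lower in MS5 than in Con. This was Enpp2, which encodes the secreted enzyme autotaxin, at -1.11 (SE 0.42, limma adjusted p = 1.00), and it was also among the 10 choroid plexus markers. Without MS5 replicate 9 it stood at -0.91 (SE 0.43) and did not pass. In the contrast of MS2 with Con 0 genes of these 5 lists passed the test or the looser threshold. The shares of all probes past that threshold were 0.0233% in this contrast and 0.228% in MS5 against Con.

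The probes of other genes most like each of these over the 15 arrays were sought among 20759 probes, as a description. The levels share library and group, and so the correlations carry no test. The 3′ probe of Ap1s2 was most like probes for Nek11 (r = 0.966), Ephx1 (r = 0.961) and Tbc1d2 (r = 0.959), and the 5′ probe was most like Chpt1 (r = 0.905), Zfp442 (r = 0.884) and Defb42 (r = 0.864). No gene was in both sets. The first probe of Pdzd2 was most like Ajap1 (r = 0.962), Cox6a2 (r = 0.947) and Ptchd1 (r = 0.942), and the second was most like Myl2 (r = 0.937), Sipa1l2 (r = 0.931) and Esrrg (r = 0.927). The 5′ probe of Prg4 was most like Znrf3 (r = 0.831), Olfr566 (r = 0.805) and Dtwd1 (r = 0.805). Its 3′ probe, measured on 1 array, was most like Dip2b (r = 0.953), Jmy (r = 0.898) and Ttc17 (r = 0.862). Without MS2 replicate 4 the values for the Pdzd2 probes were 0.827 to 0.918 and those for the Ap1s2 probes 0.834 to 0.959.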

How the data were processed

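The authors deposited scanner intensity values per spot, from Agilent Feature Extraction 10.7.1.1, for 15 mRNA arrays, and a table of log2 values made by normexp background correction followed by quantile normalization. These deposited log2 values were used. They were rebuilt from the scanner's mean and background signals (normexp, offset 50, the first spot of each probe) and matched within 5.0e-09. The 3671 control spots of 62976 per array were left out. The miR arrays were not used here. For array data the number of arrays limits the precision.

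Computations ran in R 4.3.3 (limma 3.58.1), and figures were drawn in Python 3.11.15 (matplotlib 3.10.9). All 15 arrays entered 1 limma fit of 3 groups (lmFit and eBayes) with Benjamini-Hochberg adjustment over all 55681 probes. Single values and gaps between probes were compared by two-sided exact permutation over 252 assignments of arrays. Within-group correlations were tested with 100000 permutations within groups. Pairs were adjusted over all 39398 pairs of probes with the same gene name. The named genes were all probes of the 3 genes, AP-1 subunits, list genes past the study's threshold, the 3 most alike probes for the highest and lowest probe of each gene, and Xist. The 3 genes and the lists were chosen with earlier results of these data known. The marker correlations, and leaving out MS2 replicate 4 and MS5 replicate 9 together, were added after seeing the data, as were the marker list counts with arrays left out. Lists used the probe with the highest mean level. Levels well above background are those the scanner software marks as such.

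Alternatives were a rebuild with spots averaged, an offset of 0, the processed signal scaled to the 75th percentile, array weights, slide as a block or alone, only the 2 groups compared, a filter on dim probes, and leaving out each array. The fit was tested on simulated data with known changes. The sequence and position of 1 Ap1s2 probe are not reported here.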

Additional observations from a re-analysis of the deposited data

Results flagged for a closer look

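In 4 of 21 groups of 5 arrays, taken over the 7 probes and 3 groups, 1 array lay far from the other arrays of its group; chance gives about 1 in 20. In 3 of the 4 groups this was MS2 replicate 4. The 3′ probe of Ap1s2 was low there, at 8.92 against a next lowest MS2 level of 9.61. The first probe of Pdzd2 was high, at 11.42 against a next highest of 9.98, and the second probe was high at 7.10 against 6.62. The fourth was Con replicate 18, where the 3′ probe of Prg4 stood at 6.67 against a next highest of 5.87. The level of hypothalamus and thalamus markers on MS2 replicate 4 was 10.5, and the part of this in the 3 values was not tested.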

How the results depend on the processing

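Treated pups had control littermates, but the sample labels do not give the litter of each pup. No analysis paired or blocked by litter was therefore possible. The Con, MS2 and MS5 mRNA arrays share no replicate number. Over all results and alternatives, 981 of 1069 values counted as unchanged. Some of these could not change. The difference of MS5 from Con does not use the MS2 arrays, and averaging spots leaves a probe on 1 spot as it was. The count is therefore no measure of how firm the results are. Tested values had to keep their direction and their side of the threshold. Other differences had to move by less than the spread between arrays, and counts had to stay within 1.5-fold. No alternative gave any probe an adjusted p under 0.05. The gap of Ap1s2, and that of the first and second Pdzd2 probes, kept their direction in both contrasts with Con under the 22 alternatives run for gaps, which did not include array weights, the filter on dim probes or fitting only the groups compared. The cause of the changes below was not tested.

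The number of probes past the study's looser threshold was 13 for MS2 against Con, 127 for MS5 against Con and 72 for MS5 against MS2. At a normexp offset of 0 it was 230, 401 and 370 in that order, and with the processed signal 524, 624 and 595. Array weights gave 204 for MS5 against Con and 159 for MS5 against MS2. Without both arrays that stood apart it was 7 for MS2 against Con and 123 for MS5 against MS2, and fitting only the groups compared gave 38 for MS5 against MS2. Leaving out 1 array gave 7 (without Con replicate 18) to 38 (without MS2 replicate 5) for MS2 against Con, 61 to 213 (without MS5 replicates 14 and 12) for MS5 against Con, and 15 to 106 (without the same arrays) for MS5 against MS2.

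For MS2 against Con, the 5′ probe of Ap1s2, near 0, was -0.0033 with the processed signal, -0.0062 with array weights, -0.079 without both arrays that stood apart, -0.13 within slide 2 and -0.079 to 0.074 with 1 array left out. The 5′ Prg4 probe was -0.27 and the 3′ Prg4 probe 0.030 within slide 2, and the latter was -0.18 to 0.038 with 1 array left out. For MS5 against Con, an offset of 0 gave 0.37 for the last Pdzd2 probe and 1.40 for the 5′ Prg4 probe. The processed signal gave 0.25 and 0.95 for the second and last Pdzd2 probes, and 1.72 and -0.65 for the 5′ and 3′ Prg4 probes. Within slide 1 the 3′ Ap1s2 probe was -0.42 and the first Pdzd2 probe 1.00, and within slide 2 the 5′ Ap1s2 probe was -0.028.

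The gap of the second and last Pdzd2 probes in MS2 against Con was -0.034 at an offset of 0, -0.34 with the processed signal, -0.074 within slide 1, -0.030 without both arrays that stood apart, and -0.030 to 0.10 with 1 array left out. In MS5 against Con it was -0.23 at an offset of 0, -0.70 with the processed signal and -0.08 to 0.01 with 1 array left out. The gap of the first and last Pdzd2 probes was -0.049 (MS2) and -0.29 (MS5) with the processed signal, and 0.85 (MS5) within slide 1. The gap of Prg4 was 1.80 at an offset of 0 and 2.36 with the processed signal in MS5, and -0.30 within slide 2 in MS2.

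The within-group r of the first and second Pdzd2 probes was 0.814 within group and slide, 0.685 without both arrays that stood apart, 0.670 without the 2 farthest and 0.712 to 0.916 with 1 array left out. It no longer passed the adjusted test in the first 3 of these or without any 1 of Con replicates 16 and 19, MS2 replicate 4 and MS5 replicates 8, 9 and 13. Within group and slide, blocks of 2 or 3 arrays made a small permutation p hard to reach. That of Ap1s2 was 0.162 without both arrays that stood apart, 0.174 without the 2 farthest and -0.392 to 0.203 with 1 array left out. The r of the 5′ Ap1s2 probe with choroid plexus markers was 0.0154 with the processed signal and -0.116 to 0.247 with 1 array left out. Signal over background limits the second and last Pdzd2 probes and both Prg4 probes.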
